A study of Mus musculus with 38 samples.

Results

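The genes of the proteasome were followed across the cells of the bone lining and the myeloma cells beside them. They are the rows of the deposited expression table whose symbols begin with Psma, Psmb, Psmc, Psmd, Psme, Psmf or Psmg and a number, together with Pomp, and without the immunoproteasome genes Psmb8, Psmb9 and Psmb10. The rule took 46 of 13260 genes. Of these, 45 encode proteasome subunits, activators, an inhibitor or assembly factors, and Psmc3ip, a meiotic recombination factor, matches by its name alone.

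RNA-Seq was run on aliquots of 100 sorted cells from C57Bl/KaLwRijHsd mice aged 8 to 10 weeks, which were given PBS (healthy) or 1000000 5TGM1-GFP cells intravenously and were culled on day 23. The 5TGM1-GFP cells are a murine myeloma line labelled with GFP, so every tumour cell here descends from 1 line. The 3 niche cell types were sorted from the bone lining of healthy and of myeloma-bearing mice, namely endothelial cells (CD31+), stromal progenitors (Sca1+ALCAM-) and osteoprogenitors (ALCAM+Sca1-), and tumour cells (GFP+) were taken from the lining and from the central marrow of myeloma-bearing mice. This gave 38 libraries in 8 groups, with 4 libraries in each osteoprogenitor group and 5 in each other group. Replicates are named by the letter of the library code, which the labels do not tie to a mouse, although the design text says that replicates came from different mice.

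Values are RPKM (reads scaled to the length of the gene and to library size). Levels are set side by side between genes, but other differences in how genes are amplified, mapped and counted are not removed. Total reads on genes ranged from 9735031 to 34883291 per library, but 100 cells limit the molecules sampled. Defining markers mostly followed the labels. Mean Cdh5 was 282 and 267 RPKM in healthy and myeloma-bearing endothelial cells and at most 0.686 elsewhere, mean Bglap was at least 20402 in osteoprogenitors and at most 95.9 elsewhere, and the summed level of 5 plasma cell markers was 3200 to 9882 in myeloma libraries and at most 34.1 in any niche library. Ly6a, the gene of Sca1, was higher in endothelial cells (mean 4445 in healthy mice) than in the stromal progenitors gated on it (1365). The summed level of 4 neutrophil markers ran from 0 to 7233 RPKM in healthy and from 0.193 to 8061 in myeloma-bearing stromal progenitor libraries. In these bulk samples fewer cells of a type and less RNA per cell cannot be told apart.

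The proteasome degrades ubiquitin-tagged proteins. Its 20S core is a barrel of alpha and beta subunits, of which Psmb5, Psmb6 and Psmb7 carry the constitutive protease sites, and Psmb5 is the main target of bortezomib, a standard drug in myeloma. The 19S cap recognises and unfolds substrates with a ring of ATPases (Psmc genes) and non-ATPase subunits (Psmd genes), while PA28 and PA200 (Psme genes) are other caps that open the core. Assembly needs chaperones, among them Pomp and the Psmg genes for the core and Psmd5, Psmd9 and Psmd10 for the ATPase ring. Plasma cells, which secrete large amounts of antibody, are known for a heavy load on this system. Immunoproteasomes carry Psmb8, Psmb9 and Psmb10 in place of Psmb5, Psmb6 and Psmb7.

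To set promoter sequence beside the expression values, the stretches before the start sites of 6 proteasome genes are shown. RefSeq promoter windows on GRCm38.p6, from 250 bases before to 50 bases after a start, were found for 37 of the 45 genes (40 windows). Each stretch is the 130 bases before the start, read 5′ to 3′ on the strand of the gene. The first 4 belong to genes called higher in myeloma cells than in at least 1 niche cell type and hold CCGGAA, the core of an ETS-type motif, on either strand. The other two belong to the catalytic subunits Psmb5 and Psmb6 and hold TGACNNNGC, the core of an antioxidant response element, the kind of site that the proteasome regulators Nfe2l1 and Nfe2l2 bind. Capitals mark these motifs.
Psmd2 (chr16:20651522-20651651, plus strand): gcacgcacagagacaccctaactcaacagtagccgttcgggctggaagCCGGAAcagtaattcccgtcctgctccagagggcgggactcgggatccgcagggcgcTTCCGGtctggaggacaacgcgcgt
Psmd4 (chr3:95042615-95042744, minus strand): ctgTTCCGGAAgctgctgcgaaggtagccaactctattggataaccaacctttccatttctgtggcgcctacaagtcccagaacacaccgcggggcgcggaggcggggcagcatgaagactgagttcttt
Psmg1 (chr16:95990961-95991090, minus strand): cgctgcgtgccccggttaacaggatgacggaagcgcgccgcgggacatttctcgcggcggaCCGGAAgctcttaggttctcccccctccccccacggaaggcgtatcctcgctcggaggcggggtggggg
Psme3 (chr11:101316083-101316212, plus strand): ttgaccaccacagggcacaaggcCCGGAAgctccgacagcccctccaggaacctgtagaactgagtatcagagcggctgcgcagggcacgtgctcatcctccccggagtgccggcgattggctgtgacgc
Psmb5 (chr14:54617996-54618125, minus strand): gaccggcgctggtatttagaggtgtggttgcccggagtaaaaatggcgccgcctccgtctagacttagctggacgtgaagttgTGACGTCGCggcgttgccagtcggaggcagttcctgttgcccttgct
Psmb6 (chr11:70525227-70525356, plus strand): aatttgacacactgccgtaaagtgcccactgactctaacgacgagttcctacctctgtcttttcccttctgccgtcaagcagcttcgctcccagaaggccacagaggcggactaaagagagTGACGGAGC

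Searched on both strands, CCGGAA was found in 22 of the 40 proteasome windows (55%), against 26.1% of the 12517 windows of genes in the table and 14.9% of all 32851 windows. In Psmd4 its 2 matches overlap each other. TGACNNNGC was found in 6 windows (15%), those of Psmb5, Psmb6, Psmc6, Psmd9, Psmd12 and Psme4, against 14.2% of the windows of genes in the table and 12.4% of all. CCAAT, the box bound by NF-Y, was found in 12 windows (30%), against 37.45% and 37.41%. A match is a run of letters and says nothing of binding.

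Proteasome mRNA was abundant in every cell type. The median of the gene means over all 38 libraries was 107.9 RPKM for the 45 genes, against 6.74 for the whole table. Over all libraries the highest gene of the 20S core was Psmb2 (beta subunit, mean 1273 RPKM). The lowest of the 14 genes other than Psma8 were Psma3 (alpha subunit, 41.7) and Psmb5 (51.8). By group, Psmb6 was highest in myeloma-bearing stromal progenitors (681), and the lowest was Psmb5 in endothelial cells and Psma3 elsewhere. Psma7 was the highest alpha gene (661), while Psmb6 and Psmb7 had means of 616 and 254. Subunits that enter the core in equal number thus differed 19.4- to 46.3-fold between the highest and lowest gene of a group. The order of the 14 genes was alike in all 28 pairs of groups (Spearman rho across genes 0.829 to 0.996, a description, since genes share libraries).

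Some of these levels carry a doubt from counting. GENCODE M21 names copies of Psmb5, Psmb6, Psmb7 and Psme2 (Psmb5-ps, Psmb6-ps, Psmb6-ps2, Psmb7-ps2 and Psme2b), with which reads may be shared. Copies under other names were not sought. Reads were counted without strand as far as the sources say, and exons of Psma4, Psma5, Psmb7, Psmc3, Psmd1, Psmd3, Psmd9, Psmd13 and Psme1 overlap a gene on the other strand, whose reads cannot be told apart.

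The 6 ATPases of the 19S cap were closer to each other, from 104 RPKM (Psmc1) to 188 (Psmc4) over all libraries, and differed 1.55- to 4.01-fold within a group. Among the 11 non-ATPase genes the highest was Psmd8 (304) and the lowest Psmd2 (16.6), a scaffold subunit of the cap. Assembly factors ran from Psmd9 (13.6) to Pomp (504), activators from Psme3 (13.4) to Psme1 (172), and the inhibitor Psmf1 was at 11.97. Across the 44 genes other than Psma8, longer genes had lower RPKM (Pearson r of the logarithms -0.67, again a description across genes).

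Together the 45 genes took the largest share of reads in myeloma cells. They held 1.60% to 2.38% of the reads of a library in bone-lining myeloma cells (median 2.15%) and 1.80% to 2.06% in central marrow myeloma cells (median 1.93%). Endothelial cells held 0.903% to 1.09% in healthy and 0.831% to 1.17% in myeloma-bearing mice. Stromal progenitors held 0.523% to 0.717% and 0.451% to 0.695%, and osteoprogenitors 0.532% to 0.646% and 0.324% to 0.604%, respectively. No niche library reached the lowest myeloma library. These are shares of reads before the scaling of library sizes behind the RPKM values. The scaled size was 1.31 to 1.60 times the reads in myeloma libraries and 0.627 to 0.885 times in stromal progenitor libraries. Differences in RPKM between these cells are therefore smaller than those in shares.

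**Figure D1:**
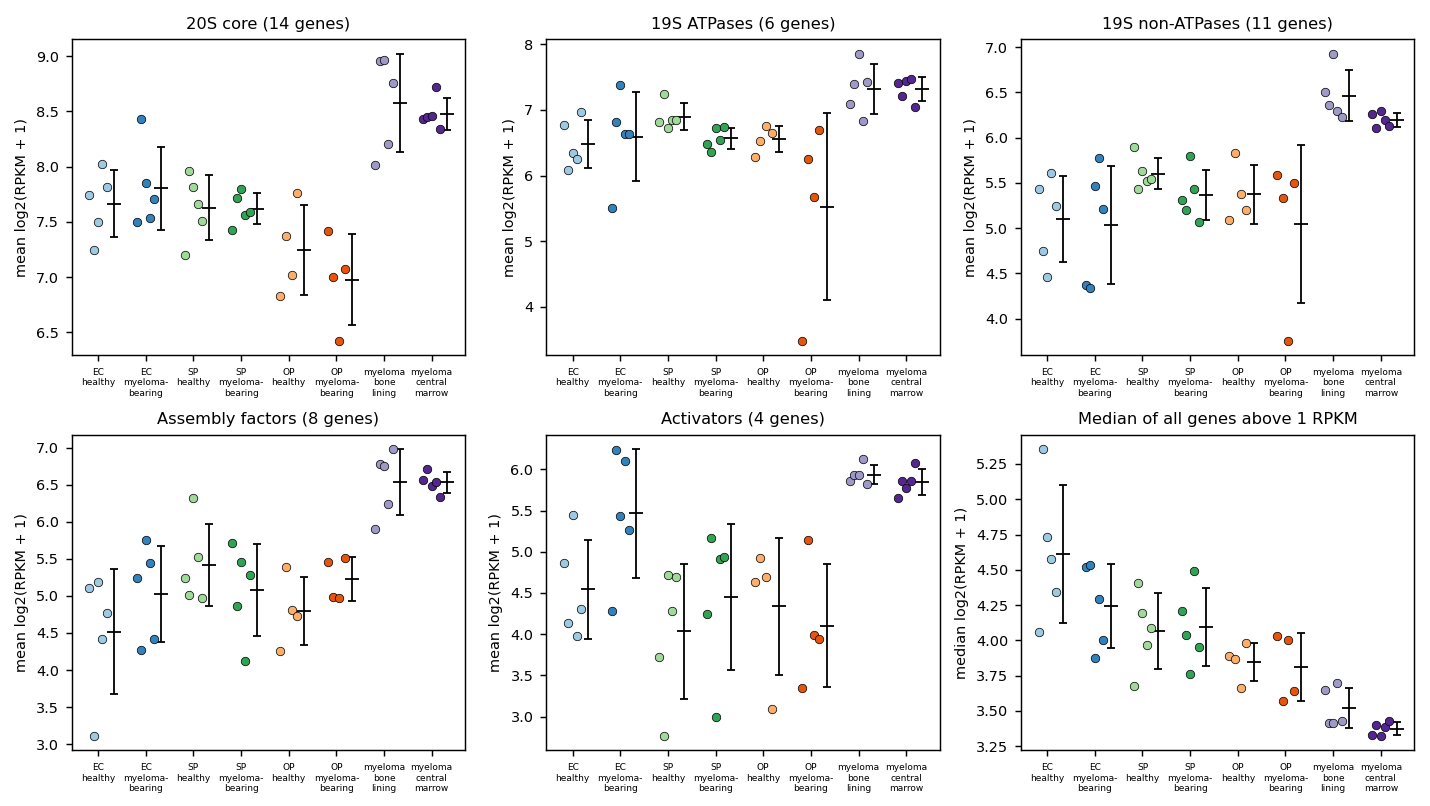
Mean log2(RPKM + 1) of the genes of each proteasome class in every library (points), with the mean and SD of each group (bars at the right of the points), for endothelial cells (EC), stromal progenitors (SP), osteoprogenitors (OP) and myeloma cells. The last panel gives the median of all genes above 1 RPKM in each library, which is lowest in the myeloma groups, while the 20S mean is 8.58 and 8.48 there and at most 7.81 in the niche groups.

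Class means on the log2(RPKM + 1) scale, given without a test, were also highest in myeloma cells. The 20S mean was 8.58 ± 0.44 (SD, n = 5) in bone-lining myeloma cells, 7.81 ± 0.38 (n = 5) in endothelial cells, 7.62 ± 0.14 (n = 5) in stromal progenitors and 6.98 ± 0.41 (n = 4) in osteoprogenitors of myeloma-bearing mice. For assembly factors these means were 6.53 ± 0.44, 5.02 ± 0.65, 5.08 ± 0.62 and 5.23 ± 0.30. The ATPase mean of myeloma-bearing osteoprogenitors ran from 3.48 (replicate D) to 6.69 (replicate J), with the widest SD of the 8 groups.

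Most proteasome genes were found in every library. Of the 44 genes other than Psma8, 23 were at 1 RPKM or more in all 38 libraries and 16 at 10 RPKM or more, and the latter include every 20S gene except Psma1, Psmb4 and Psmb5. In the 10 myeloma libraries none of the 44 genes was below 1 RPKM. In healthy endothelial cells 18 of them were below 1 RPKM in at least 1 library, with 12 in replicate L, and in myeloma-bearing endothelial cells 11 were. Psmb5 (chr14:54614119-54618022, minus strand, GENCODE M21 on GRCm38 as for all genes below) was at 93.8, 0.131, 1.42, 28.03 and 48.4 RPKM in healthy endothelial replicates C, L, M, N and O. It was at 0.246, 61.0, 82.8, 64.0 and 25.1 in myeloma-bearing replicates D, E, G, I and J, so that 3 of 10 endothelial libraries were below 2 RPKM.

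The spread between libraries differed by cell type. The median coefficient of variation of proteasome genes above 1 RPKM was 79.7% in healthy and 63.6% in myeloma-bearing endothelial cells, 44.9% and 54.1% in stromal progenitors, 42.8% and 60.3% in osteoprogenitors, 34.8% in bone-lining myeloma cells and 17.6% in central marrow myeloma cells. All genes above 1 RPKM varied more (median 123% in healthy endothelial cells and 38.3% in central marrow myeloma cells). Genes above the median proteasome level varied less (60.1% and 14.9% in the same groups). That set leaves out lower genes, whereas the proteasome genes include them, so the sets are not matched in level.

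Bone-lining myeloma cells were compared with each niche cell type of myeloma-bearing mice. Genes above 1 RPKM in 4 or more of these libraries were tested with limma on log2(RPKM + 1), and a gene was called where its adjusted p (Benjamini-Hochberg) was under 0.1 and its log2 difference was past 1 in size. The 3 comparisons share the bone-lining myeloma libraries, so their calls are not independent. Of 44 proteasome genes tested in each, 13 were higher in myeloma than in endothelial cells (29.5%, where 24.4% of all 9207 genes tested were higher), 18 were higher than in stromal progenitors (40.9%, against 23.5% of 9460) and 26 were higher than in osteoprogenitors (59.1%, against 24.5% of 9316). The share over endothelial cells is near that of all genes. No proteasome gene was called lower in myeloma cells, where 17.1%, 18.8% and 18.4% of all genes were. At an unadjusted p below 0.05, 2, 0 and 0 proteasome genes were lower (17.8%, 19.6% and 19.1% of all genes were), and voom-limma on the reads behind the values called 1, 0 and 0 lower (14.8%, 15.9% and 13.3% of all genes). Voom-limma called 17, 14 and 13 proteasome genes higher, where it called 28.4%, 22.9% and 15.4% of all genes higher. The count of 18 over stromal progenitors was 12 (27.3%) without replicate G and 12 without replicate J, where 19.6% and 21.2% of all genes were higher.

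The median log2 difference of proteasome genes was 1.14, 1.01 and 1.59 over endothelial cells, stromal progenitors and osteoprogenitors, where the medians of all genes tested were 0.49, 0.35 and 0.39. With libraries scaled to equal medians the proteasome medians were 0.99, 1.08 and 1.64 and those of all genes 0.35, 0.42 and 0.44, and with quantile normalisation they were 1.20, 1.24 and 1.56 against 0.25, 0.29 and 0.31. The distance to all genes was smaller with a pseudocount of 0.1, where the medians were 1.27, 1.08 and 1.65 against 0.98, 0.68 and 0.61, and smallest with voom-limma, where they were 1.39, 1.03 and 1.61 against 1.25, 0.87 and 0.72. By voom-limma the proteasome median over endothelial cells and stromal progenitors was thus close to that of all genes. Of markers of other cells, the summed level of 6 macrophage and osteoclast markers was 170.3 to 903 RPKM in bone-lining myeloma libraries, mostly Cd68 (mean 575), with mean Csf1r at 0.146, and was 1.77 to 264, 217 to 715 and 123 to 419.8 in the 3 niche groups. Its part in these differences was not tested.

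**Figure D2:**
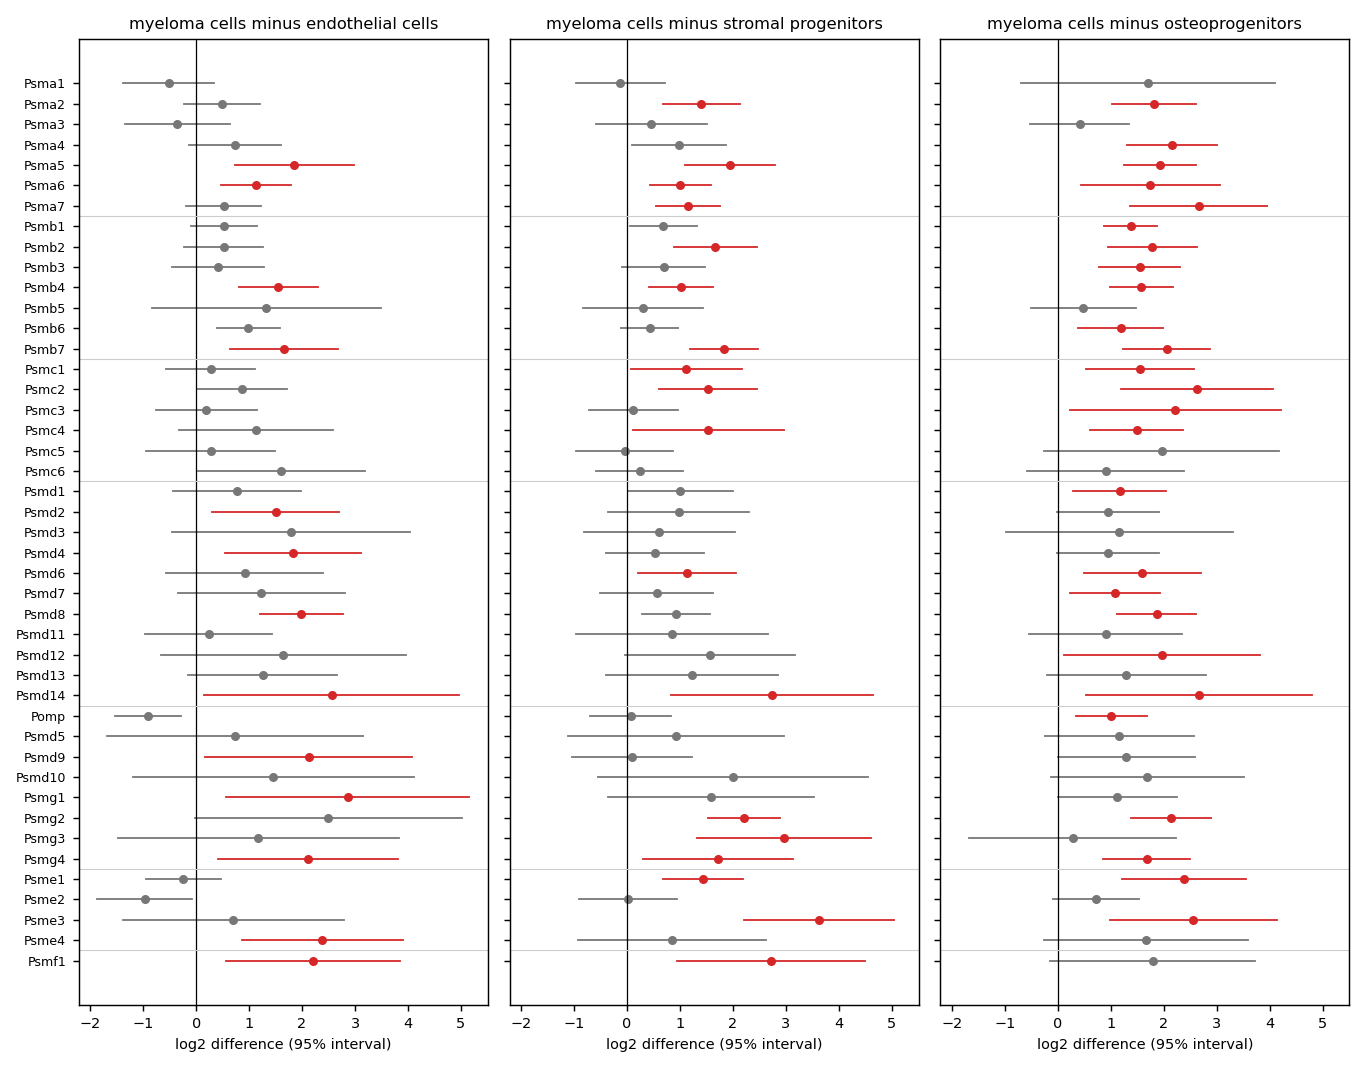
Log2 difference in log2(RPKM + 1) between bone-lining myeloma cells and endothelial cells, stromal progenitors or osteoprogenitors of myeloma-bearing mice for 44 proteasome genes (points) with 95% limma intervals (lines), red where called. Grey rules part the classes, from 20S alpha genes at the top to the inhibitor Psmf1, and 13, 18 and 26 points are red.

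In the 20S core, 2 of 7 alpha genes and 2 of 7 beta genes were higher in myeloma than in endothelial cells, 4 and 3 were higher than in stromal progenitors, and 5 and 6 were higher than in osteoprogenitors. Psma5 (chr3:108256926-108279974, plus strand), an alpha ring subunit, was at 128, 179.7, 216, 168 and 189.6 RPKM in bone-lining myeloma replicates D, E, G, I and J. In the same replicates it was at 11.3, 84.2, 64.2, 50.4 and 75.0 in endothelial cells and at 26.7, 57.3, 76.4, 27.0 and 54.7 in stromal progenitors, and it was at 49.8, 37.5, 45.1 and 49.2 in osteoprogenitor replicates D, G, I and J. Every bone-lining myeloma library was thus above every one of these niche libraries. The log2 differences were 1.85 ± 0.52 (SE, adjusted p = 0.0144), 1.94 ± 0.39 (0.00169) and 1.92 ± 0.31 (0.000381).

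Psmb7 (chr2:38588036-38644087, minus strand), the subunit of the trypsin-like site, was at 323, 610.3, 591, 447 and 413 RPKM in bone-lining myeloma replicates D, E, G, I and J. It was at 43.9 to 320.3 in endothelial cells, 85.2 to 162 in stromal progenitors and 50.5 to 158 in osteoprogenitors of myeloma-bearing mice, so myeloma cells overlapped none of them. Its log2 differences were 1.66 ± 0.47 (adjusted p = 0.0154), 1.83 ± 0.30 (0.000306) and 2.06 ± 0.38 (0.000973). Psmb6, of the caspase-like site, was higher than in osteoprogenitors by 1.19 ± 0.37 (0.0243). Its log2 difference was 0.99 ± 0.27 (0.0138) over endothelial cells, just under the fold threshold, and 0.43 ± 0.25 (0.206) over stromal progenitors.

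Psmb5, of the chymotrypsin-like site, was called in none of the 3. It was at 40.8, 81.8, 128, 37.7 and 61.8 RPKM in bone-lining myeloma replicates D, E, G, I and J, against 24.7 to 123 in stromal progenitors and 29.5 to 61.2 in osteoprogenitors of myeloma-bearing mice, and the ranges overlapped. The log2 differences were 1.33 (95% interval -0.84 to 3.49) over endothelial cells, 0.30 (-0.83 to 1.43) over stromal progenitors and 0.48 (-0.51 to 1.48) over osteoprogenitors. None of these intervals excludes a rise past the fold threshold. The difference over endothelial cells was 0.39 without replicate D.

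Other core genes were also higher. Psmb4 (beta) had a mean of 692 ± 175 RPKM in bone-lining myeloma cells, against 248 ± 101 in endothelial cells, 349 ± 127 in stromal progenitors and 230.2 ± 56.6 in osteoprogenitors, with log2 differences of 1.55, 1.02 and 1.58, all called. Psma6 (alpha) differed by 1.14, 1.01 and 1.75, all called. Psma2 and Psma7 (alpha) and Psmb2 (beta) were called over stromal progenitors, by 1.405, 1.16 and 1.67, and over osteoprogenitors, by 1.81, 2.66 and 1.79. Psma4, Psmb1 and Psmb3 were called over osteoprogenitors, by 2.16, 1.37 and 1.54. The alpha genes Psma1 (-0.52, -0.12 and 1.70) and Psma3 (-0.35, 0.46 and 0.41) were not called, and the difference of Psma1 over osteoprogenitors was 0.33 without replicate I. Some calls were lost when a replicate was left out. Over endothelial cells Psma6 was lost without replicate I (0.97), over stromal progenitors Psma6 was lost without replicate D, E or J (0.88 to 0.99), Psma7 without replicate G (0.999) and Psmb4 without replicate G or J (0.75 to 0.95), and over osteoprogenitors Psma6 was lost without replicate G or J (1.05 to 1.63) and Psmb6 without replicate G or J (0.89 to 1.08). With all 38 libraries in one fit Psmb4 was called in none of the 3. With equal medians Psma6 was not called over endothelial cells. Voom-limma called neither Psma6 (0.88), Psma7 (0.96) nor Psmb4 (0.91) over stromal progenitors, and did not call Psmb4 over osteoprogenitors (1.53). The calls of Psma5 and Psmb7 held under every alternative tried.

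For the 19S cap, 0 of 6 ATPases and 4 of 11 non-ATPases were higher in myeloma than in endothelial cells, 3 and 2 were higher than in stromal progenitors, and 4 and 6 were higher than in osteoprogenitors. The ATPase Psmc4 was called over endothelial cells by voom-limma (1.32), as was Psmc6 (1.48), and at an unadjusted p below 0.05 Psmc2 and Psmc6 were higher. Psmd14 (chr2:61711694-61800376, plus strand), the deubiquitinase of the cap, was at 170.0, 261, 392, 177 and 379.6 RPKM in bone-lining myeloma replicates D, E, G, I and J. In the same replicates it was at 0.139, 144, 118, 112 and 75.2 in endothelial cells and at 181, 26.0, 121, 1.93 and 48.7 in stromal progenitors, and in osteoprogenitor replicates D, G, I and J it was at 184, 99.1, 1.63 and 57.3. Each niche group had a library below 2 RPKM, and myeloma cells did not overlap endothelial cells but overlapped the other two. The log2 differences were 2.56 ± 1.11 (adjusted p = 0.0945), 2.75 ± 0.89 (0.0263) and 2.66 ± 0.98 (0.0501). The call over endothelial cells was lost without replicate E, G, I or J (2.62 to 3.03) and that over osteoprogenitors without replicate J (2.70).

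Psmd8, a lid subunit, had means of 559 ± 129 RPKM in bone-lining myeloma cells, 150.1 ± 69.6 in endothelial cells and 160.1 ± 60.1 in osteoprogenitors, and was called over both, by 1.99 ± 0.36 (adjusted p = 0.000965) and 1.87 ± 0.34 (0.000983). Psmd2 and Psmd4, a scaffold and a ubiquitin receptor, were called over endothelial cells, by 1.4998 and 1.83. Psmc1, Psmc2 and Psmc4 were called over stromal progenitors, by 1.12, 1.53 and 1.54, and over osteoprogenitors, by 1.56, 2.63 and 1.49. Psmc3 was called over osteoprogenitors (2.22). Psmd6 was called over stromal progenitors (1.13) and osteoprogenitors (1.59), and Psmd1, Psmd7 and Psmd12 over osteoprogenitors (1.17, 1.08 and 1.97). Psmc5, Psmd3, Psmd11 and Psmd13 were called in none. Calls of the cap were lost over endothelial cells for Psmd2 without replicate D, G or I (1.10 to 1.44) and Psmd4 without replicate E (1.31), and over stromal progenitors for Psmc1 without replicate D, E, G or J (0.90 to 1.07), Psmc4 without replicate E, G, I or J (0.93 to 1.86) and Psmd6 without replicate G, I or J (0.93 to 1.13). Over osteoprogenitors they were lost for Psmc3 without replicate D, E, G or J (0.94 to 2.60), Psmd1 without replicate D, I or J (0.84 to 1.27), Psmd6 without replicate I (1.10), Psmd7 without replicate D, G or I (0.80 to 1.04) and Psmd12 without replicate E, G or I (0.95 to 1.99). Voom-limma did not call Psmc2 (1.47) or Psmd6 (1.14) over stromal progenitors. Over osteoprogenitors it called none of Psmc2, Psmc3, Psmc4, Psmd1, Psmd6, Psmd7, Psmd12 and Psmd14, with log2 differences from 1.17 to 2.90. With all 38 libraries in one fit the calls of Psmd14 over endothelial cells, of Psmc2 and Psmd6 over stromal progenitors and of Psmd1, Psmd6, Psmd7, Psmd12 and Psmd14 over osteoprogenitors were lost. Without a filter on low values those of Psmd14 over endothelial cells, Psmc1 and Psmc4 over stromal progenitors and Psmc3 and Psmd12 over osteoprogenitors were lost. The same calls except that of Psmc1 were lost with a pseudocount of 0.1. Without the trend those of Psmd14 over endothelial cells, Psmc1, Psmc4 and Psmd6 over stromal progenitors and Psmd12 over osteoprogenitors were lost, and with equal medians those of Psmd14 over endothelial cells and Psmc1 over stromal progenitors. Psmd8 kept both of its calls under every alternative tried.

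Of 8 assembly factors, 3 were higher in myeloma cells in each comparison. Psmg4 was called in all of them (2.12, 1.72 and 1.68), Psmg1 and Psmd9 over endothelial cells (2.86 and 2.12), Psmg2 over stromal progenitors (2.21) and osteoprogenitors (2.14), and Psmg3 over stromal progenitors (2.96). Over endothelial cells Psmg2 had a log2 difference of 2.50 ± 1.16 (adjusted p = 0.117) and was not called, with a value of 1.05 without replicate J. Pomp (chr5:147860461-147876456, plus strand), which joins the core during its assembly and is degraded by it, had another order. It was at 346, 634, 467, 347 and 524 RPKM in bone-lining myeloma replicates D, E, G, I and J, and at 1146, 1251, 663, 769.6 and 602 in endothelial cells of the same replicates, which lie higher with some overlap. Its log2 difference was -0.91 ± 0.28 (adjusted p = 0.0249) over endothelial cells, past the p threshold but not the fold threshold, 0.07 ± 0.35 (0.897) over stromal progenitors and 1.01 ± 0.31 (0.0226) over osteoprogenitors. With equal medians Pomp was called lower than in endothelial cells (-1.06, limma adjusted p = 0.0778), as it was without replicate G and without replicate J. Calls of assembly factors were lost over endothelial cells for Psmg1 without replicate E, I or J (2.08 to 2.49), Psmd9 without replicate D, G or J (1.55 to 2.22) and Psmg4 without replicate I (1.96), over stromal progenitors for Psmg4 without replicate G, I or J (0.96 to 1.84) and over osteoprogenitors for Pomp without replicate E, I or J (0.89 to 0.98). Voom-limma called neither Pomp (0.91), Psmg2 (1.998) nor Psmg4 (1.71) over osteoprogenitors. With all 38 libraries in one fit Psmg2 and Psmg4 were not called over osteoprogenitors, nor Psmg4 over stromal progenitors. Quantile normalisation ended the call of Pomp over osteoprogenitors. Over endothelial cells Psmd9, Psmg1 and Psmg4 were not called without a filter on low values, and Psmd9 was also not called with equal medians or a pseudocount of 0.1.

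Among the activators, Psme1 and Psme2 form PA28αβ, which interferon is known to induce, Psme3 forms nuclear PA28γ, and Psme4 is PA200. Psme1 (chr14:55578123-55581529, plus strand) was at 169 to 285 RPKM in bone-lining myeloma cells and at 179 to 434 in endothelial cells, against 46.1 to 119 in stromal progenitors and 9.84 to 70.4 in osteoprogenitors of myeloma-bearing mice. It was called over stromal progenitors (1.44 ± 0.35, adjusted p = 0.00574) and osteoprogenitors (2.38 ± 0.54, 0.00406), and its log2 difference from endothelial cells was -0.24 (95% interval -0.95 to 0.47). Psme2 had log2 differences of -0.97 ± 0.41 (adjusted p = 0.0867), 0.02 ± 0.43 and 0.71 ± 0.37, and by voom-limma it was called lower than in endothelial cells (-1.11, adjusted p = 0.0374), as it was by limma without replicate G (-1.15).

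Psme3 (chr11:101316213-101323537, plus strand) was at 30.5, 17.9, 24.7, 32.2 and 26.3 RPKM in bone-lining myeloma replicates D, E, G, I and J. It was at 0.0279, 7.90, 0.205, 0.337 and 2.22 in stromal progenitors of the same replicates, and at 1.51, 23.9, 3.36 and 0.560 in osteoprogenitor replicates D, G, I and J. It was called over stromal progenitors (3.63 ± 0.66, adjusted p = 0.000715), without overlap, and over osteoprogenitors (2.56 ± 0.72, 0.0148), where 1 library overlapped and voom-limma did not call it (3.11). Psme4 was called over endothelial cells (2.38 ± 0.70, 0.0187). Psmf1, an inhibitor of the core, was called over endothelial cells (2.22 ± 0.76, 0.0381) and stromal progenitors (2.72 ± 0.83, 0.0197), with means of 17.7 RPKM in bone-lining myeloma cells, 5.03 in endothelial cells and 4.48 in stromal progenitors. The call of Psmf1 over endothelial cells was lost without replicate E or G (1.70 to 1.84), with all 38 libraries in one fit and with voom-limma (3.79).

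**Figure D3:**
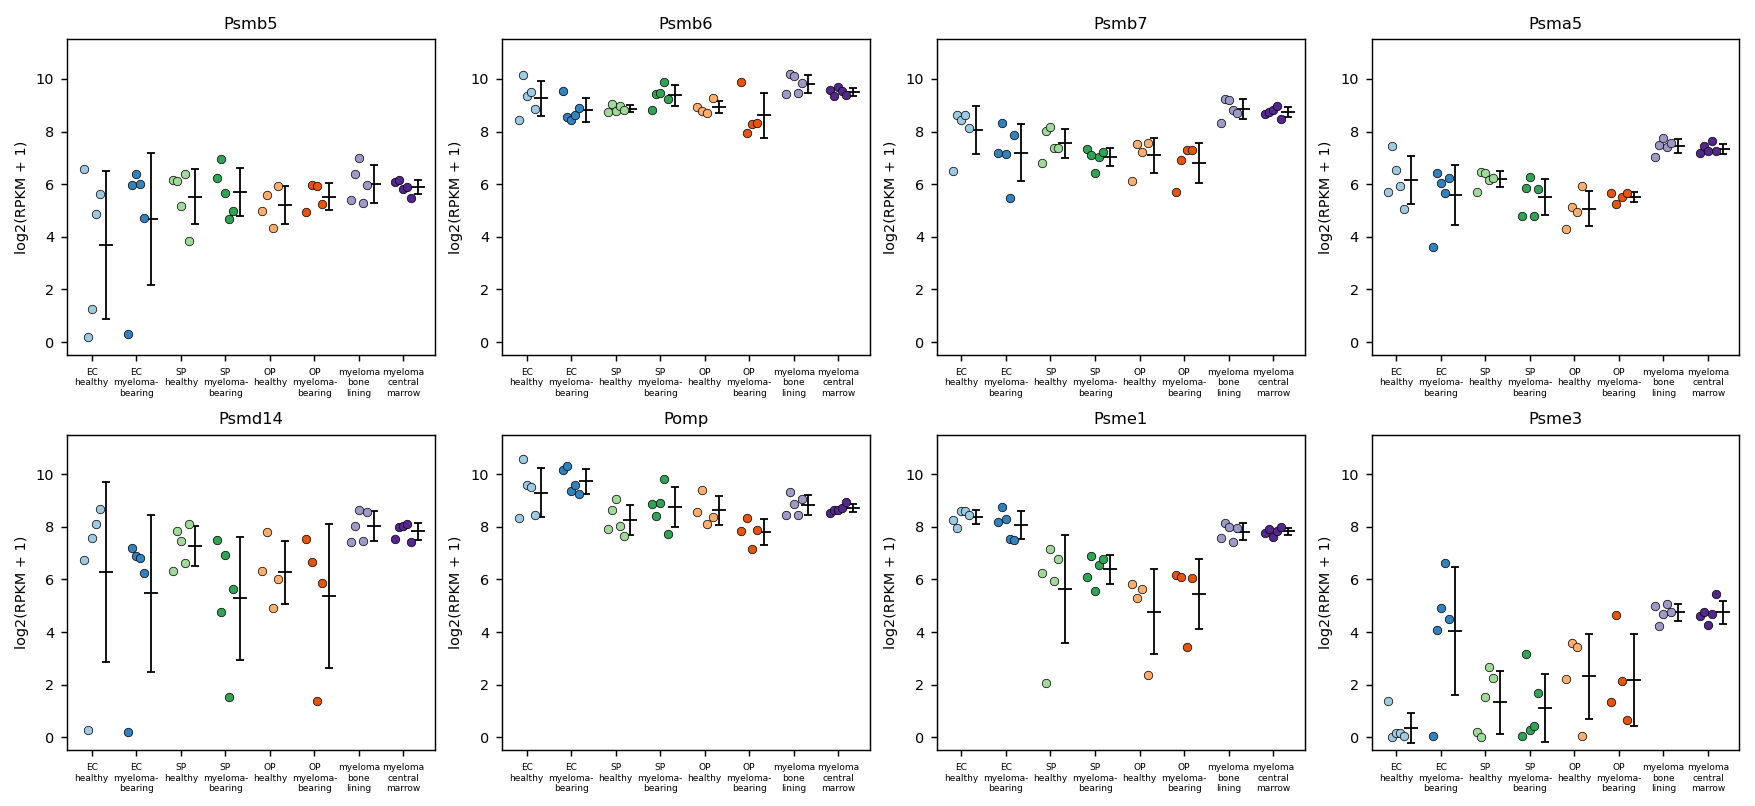
Log2(RPKM + 1) of 8 proteasome genes in every library (points) with the mean and SD of each group (bars at the right of the points), for endothelial cells (EC), stromal progenitors (SP), osteoprogenitors (OP) and myeloma cells. Psma5 and Psmb7 have their highest group means in myeloma cells, Psmb5 and Psmd14 fall near 0 in some niche libraries, Pomp has its highest means in endothelial cells, and Psme1 is high in both endothelial and myeloma cells.

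Like Psme1, the immunoproteasome genes Psmb8 and Psmb9, which the rule left out, were high in both endothelial and myeloma cells. They had means of 633 ± 273 and 271 ± 88.4 RPKM in bone-lining myeloma cells, 563 ± 313 and 220.3 ± 90.8 in endothelial cells, 46.3 ± 50.6 and 10.0 ± 13.1 in stromal progenitors, and 46.7 ± 48.8 and 25.2 ± 32.7 in osteoprogenitors of myeloma-bearing mice. Psmb8, Psmb9 and Psmb10 were called over stromal progenitors (4.59, 5.63 and 2.43) and osteoprogenitors (4.42, 4.77 and 3.66). The call of Psmb10 over stromal progenitors was lost without replicate D, G, I or J (1.35 to 2.81), with all 38 libraries in one fit, without a filter on low values and with a pseudocount of 0.1, and voom-limma did not call it over stromal progenitors (3.07) or osteoprogenitors (3.89). Over endothelial cells their log2 differences were 0.24, 0.34 and -0.66, and none was called. Exons of Psmb9 and Tap1 overlap on opposite strands.

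Genes around the proteasome were taken from a list of 36 symbols of its receptors, deubiquitinases, ubiquitin genes and regulators, of which 32 are in the table and 31 were tested in these comparisons. Higher in myeloma cells were 7 over endothelial cells (22.6%), 5 over stromal progenitors (16.1%) and 6 over osteoprogenitors (19.4%), shares below the 24.4%, 23.5% and 24.5% of all genes tested. Lower were 3 (9.68%), 1 (3.23%) and 2 (6.45%), against 17.1%, 18.8% and 18.4%. Txnl1, a redox protein bound to the cap, had a mean of 237 ± 76.0 RPKM in bone-lining myeloma cells and was called higher by 2.95, 2.42 and 2.39. Rps27a, a fusion of ubiquitin and a ribosomal protein, was higher in each (1.56, 1.74 and 1.74). Nfe2l1, a transcription factor known to restore proteasome genes when the proteasome is inhibited, was lower in myeloma than in endothelial cells (-2.07, means 3.11 ± 1.08 and 20.4 ± 16.1 RPKM) and osteoprogenitors (-1.70). Uchl5, a deubiquitinase of the cap, was higher than in osteoprogenitors (3.60).

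Myeloma cells of the bone lining were then compared with those of the central marrow, to ask whether the site of the tumour cells goes with a difference in these genes. With limma none of 44 proteasome genes was called (18 of 8857 genes were, 0.203%), and none was by voom-limma (0.102% of all genes were). At an unadjusted limma p below 0.05, 2 were higher, Psmd1 and Psmd11, where 3.18% of all genes were. The median log2 difference was 0.15, against -0.01 for all genes. Psmb6 was at 689.8, 1161, 1093, 698 and 914 RPKM in the bone lining and at 756, 651, 824, 752 and 663 in the central marrow (replicates D, E, G, I and J), overlapping ranges with a log2 difference of 0.29 (95% interval -0.10 to 0.69). Psmb5 differed by 0.12 (-0.55 to 0.78) and Psmb7 by 0.13 (-0.30 to 0.56). The differences farthest from 0, each followed by its range with a replicate left out, were Psmd11 (0.69, 0.51 to 0.77), Psmd1 (0.56, 0.48 to 0.64) and Psmd10 (0.41, 0.20 to 0.87) upwards, and Psmg3 (-0.98, -1.37 to -0.26), Psmc5 (-0.38, -0.56 to -0.22) and Psmg1 (-0.35, -0.54 to -0.05) downwards. Psmg3 was nearest 0 without replicate I and Psmg1 without replicate D.

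The study asked how myeloma alters the niche, and each niche cell type of myeloma-bearing mice was compared with that of healthy mice. With limma no proteasome gene was called in endothelial cells (0% of 7880 genes were), in stromal progenitors (0% of 8747) or in osteoprogenitors (0.0115% of 8664). These limma fits called almost no gene at all, whereas the study, by voom-limma on counts at the same thresholds, reported differing genes in each. The absence of calls is therefore no evidence that proteasome genes were unchanged. At an unadjusted p below 0.05 there were 1, 2 and 1 proteasome genes, where 5.25%, 5.00% and 4.87% of all genes were. Voom-limma called 1, 0 and 0 proteasome genes, where it called 3.92%, 0.709% and 0.150% of all genes. Median log2 differences were 0.01, -0.04 and -0.27, against 0.07, 0.00 and -0.03 for all genes. In endothelial cells equal medians moved both medians, to -0.35 and -0.28. In osteoprogenitors 29 of 44 proteasome genes were below 0, where 51.6% of all genes were. The 6 ATPases were among them, from -1.64 to -0.32, with none called, and some of this rests on myeloma-bearing replicate D, without which Psmc3 was at -0.39, Psmc5 at -0.13 and Psmc6 at 0.21.

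**Figure D4:**
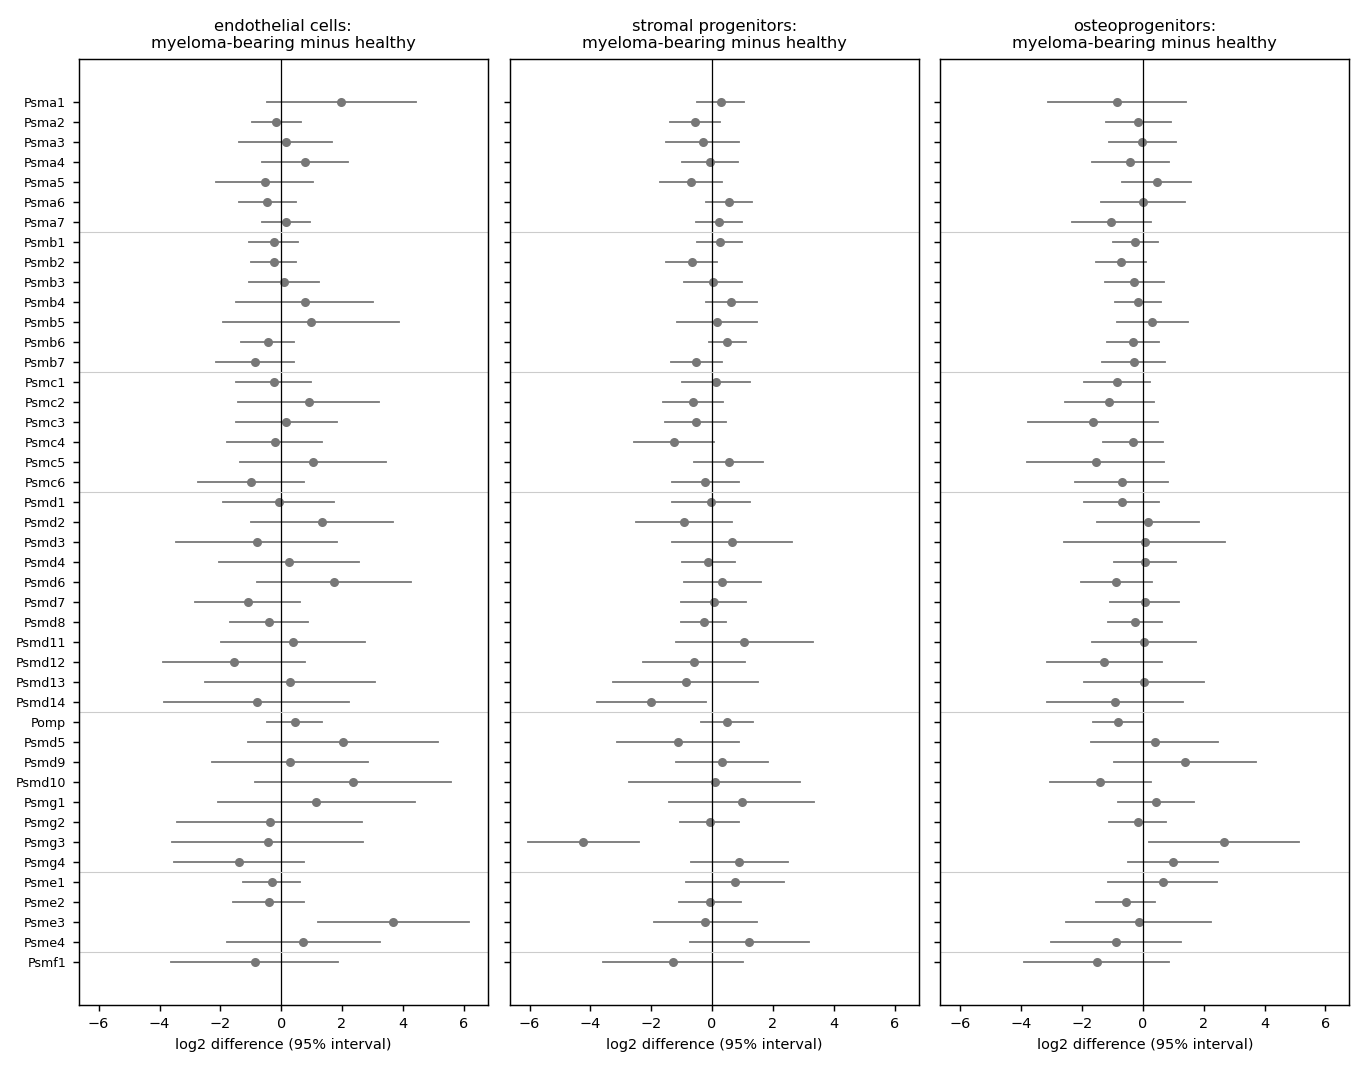
Log2 difference in log2(RPKM + 1) between myeloma-bearing and healthy mice for 44 proteasome genes (points) with 95% limma intervals (lines) in endothelial cells, stromal progenitors and osteoprogenitors. None is called, and the points farthest from 0 are Psme3 in endothelial cells (3.69) and Psmg3 in stromal progenitors (-4.23) and osteoprogenitors (2.67).

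Psme3 was the proteasome gene farthest from 0 in endothelial cells. It was at 1.63, 0, 0.114, 0.126 and 0.0315 RPKM in healthy replicates C, L, M, N and O, and at 0.0409, 16.0, 29.4, 98.1 and 21.6 in myeloma-bearing replicates D, E, G, I and J. Thus 4 of 5 myeloma-bearing libraries were above all healthy ones, and replicate D lay among the healthy values. The log2 difference of 3.69 ± 1.19 had an unadjusted limma p of 0.00588 and an adjusted p of 0.821. With all 38 libraries in the fit the adjusted p was 0.0227, and with voom-limma it was 0.0432. The changes in endothelial cells and stromal progenitors differed by 3.91 ± 1.39 (interaction in limma, adjusted p = 0.735).

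Psmg3 (chr5:139823592-139826885, minus strand), a chaperone of alpha ring assembly, was at 14.1, 122, 33.6, 38.4 and 34.7 RPKM in healthy stromal progenitor replicates C, L, M, N and O, and at 0, 2.11, 1.71, 0.143 and 3.03 in myeloma-bearing replicates D, E, G, I and J. The groups did not overlap, and the log2 difference of -4.23 ± 0.86 was the most negative of all 8747 genes tested. Its unadjusted limma p was 0.000121 and its adjusted p 0.283, so it was not called. In osteoprogenitors the difference had the other sign, from 0, 0.283, 0 and 14.1 RPKM in healthy replicates L, M, N and O to 5.06, 3.17, 42.6 and 27.9 in myeloma-bearing replicates D, G, I and J (2.67 ± 1.16, adjusted p = 0.981), with overlap. These changes differed by -6.90 ± 1.80 (interaction in limma, adjusted p = 0.582). An exon of Gm26938 overlaps Psmg3 on the same strand.

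Other members at either end were not called, and each log2 difference is followed by its range with a replicate left out. In endothelial cells they were Psmd10 (2.35, 1.60 to 3.60) and Psmd5 (2.03, 1.29 to 3.22) upwards and Psmd12 (-1.55, -2.05 to -0.29), Psmg4 (-1.39, -1.96 to -0.57) and Psmd7 (-1.10, -1.40 to -0.38) downwards. Those of Psmd12 and Psmd7 were nearest 0 without myeloma-bearing replicate E, and that of Psmg4 without healthy replicate L. In stromal progenitors they were Psme4 (1.22, 0.93 to 2.09), Psmd11 (1.07, 0.28 to 1.91) and Psmg1 (0.98, -0.01 to 1.96) upwards and Psmd14 (-1.99, -2.55 to -1.06) and Psmf1 (-1.28, -1.95 to -0.82) downwards. Psmg1 was nearest 0 without healthy replicate L and Psmd14 without myeloma-bearing replicate I. In osteoprogenitors they were Psmd9 (1.38, 0.81 to 2.04) and Psmg4 (0.99, 0.59 to 1.63) upwards and Psmc3 (-1.64, -2.13 to -0.39), Psmc5 (-1.55, -2.20 to -0.13) and Psmf1 (-1.53, -2.41 to -0.74) downwards, with Psmc3 and Psmc5 nearest 0 without replicate D. The catalytic subunit Psmb5 differed by 0.98 (95% interval -1.91 to 3.86), 0.17 (-1.14 to 1.48) and 0.30 (-0.87 to 1.48) in the 3 cell types. With a replicate left out these differences ranged from 0.10 to 2.07, from -0.26 to 0.43 and from 0.01 to 0.55, and that of endothelial cells was lowest without healthy replicate L. In the 3 interaction tests none of 45 proteasome genes was called (0%, 0% and 0.00854% of 11713 genes were), none was by voom-limma (0.521%, 0.171% and 0.111% of all genes were), and 3, 1 and 2 were at an unadjusted p below 0.05, where 5.84%, 5.21% and 3.44% of all genes were.

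Between the niche cell types of healthy mice limma called few proteasome genes. Between endothelial cells and stromal progenitors 1 of 44 was higher and 1 lower (6.69% and 10.6% of 8457 genes were), while all 38 libraries in one fit gave 5 higher and 4 lower (10.9% and 17.2% of all genes) and voom-limma gave 4 higher and 5 lower (10.3% and 19.9%). Psme1 was higher, at 307, 247, 384, 387 and 348 RPKM in endothelial replicates C, L, M, N and O and at 75.6, 3.18, 140.1, 59.8 and 108 in stromal progenitors of the same letters, without overlap (2.74 ± 0.81, adjusted p = 0.0362). Psmd2 was lower, with means of 4.74 ± 6.54 and 25.8 ± 9.85 RPKM (-2.80 ± 0.90, 0.0544). Psmd2 lost its call with equal medians (-2.14) and without replicate C, M, N or O (-2.96 to -2.34), and Psme1 lost its call without a filter on low values and without replicate N (2.76). Equal medians moved the median of all genes from -0.21 to 0.45 and that of proteasome genes from -0.32 to 0.34.

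Between endothelial cells and osteoprogenitors 2 genes were higher and 0 lower (6.67% and 9.81% of 8258 genes were), while all 38 libraries in one fit gave 4 higher and 3 lower (10.9% and 16.1% of all genes) and voom-limma gave 2 higher and 2 lower (8.39% and 18.4%). The 2 genes called higher were Psme1, with means of 335 ± 59.0 and 36.8 ± 23.0 RPKM (3.59 ± 0.71, adjusted p = 0.00448), and Psme2, with means of 217 ± 112 and 68.3 ± 14.6 (1.53 ± 0.54, 0.0916). Psme1 was called under every alternative tried, whereas Psme2 lost its call without the trend, with quantile normalisation, with equal medians and without replicate L, M, N or O (1.29 to 1.63). Psmd10 and Psme3 were lower at an unadjusted p below 0.05, where 14.2% of all genes were, and Psmd2 and Psme4 were called lower by voom-limma. Psmb8 (2.59) and Psmb9 (4.97) were also higher in endothelial cells than in osteoprogenitors, and than in stromal progenitors (4.67 and 5.93). The call of Psmb8 over osteoprogenitors was lost with voom-limma (2.81) and without replicate M, N or O (1.80 to 2.70).

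Between osteoprogenitors and stromal progenitors 0 genes were higher and 1 lower (1.69% and 1.9% of 8707 genes were), with 0 higher by voom-limma (3.08%). At an unadjusted limma p below 0.05, 0 of 44 were higher (6.59% of all genes were) and 5 were lower (6.52%). The gene called lower was Psmg3, with means of 3.59 ± 6.99 and 48.6 ± 42.3 RPKM (-4.22 ± 0.96, adjusted p = 0.0289). It lost its call without replicate L, M or N (-4.03 to -3.45).

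The balance of immunoproteasome to constitutive catalytic subunits was compared as the log2 ratio of (RPKM + 1) for each pair that occupies the same site. Psmb8 to Psmb5 was 3.76 ± 1.93 (SD, n = 5) in healthy endothelial cells and 3.21 ± 0.38 (n = 5) in bone-lining myeloma cells, and -2.75 ± 1.70 (n = 5) in healthy stromal progenitors and -0.34 ± 1.56 (n = 4) in healthy osteoprogenitors. Psmb9 to Psmb6 was -1.37 ± 1.47, -1.77 ± 0.32, -6.92 ± 2.42 and -6.01 ± 2.12 in the same groups. Both ratios were thus higher in endothelial and myeloma cells, which is given without a test. Psmb10 to Psmb7 was -1.83 ± 3.76, -1.68 ± 0.19, -3.43 ± 2.12 and -1.88 ± 1.39 in the same groups. Healthy endothelial replicate L was far below the others of its group, and the mean of the other 4 was -0.18 ± 0.79. In myeloma-bearing mice this ratio was 0.64 ± 1.07 in endothelial cells, -2.28 ± 2.85 in stromal progenitors and -3.28 ± 1.49 in osteoprogenitors.

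**Figure D5:**
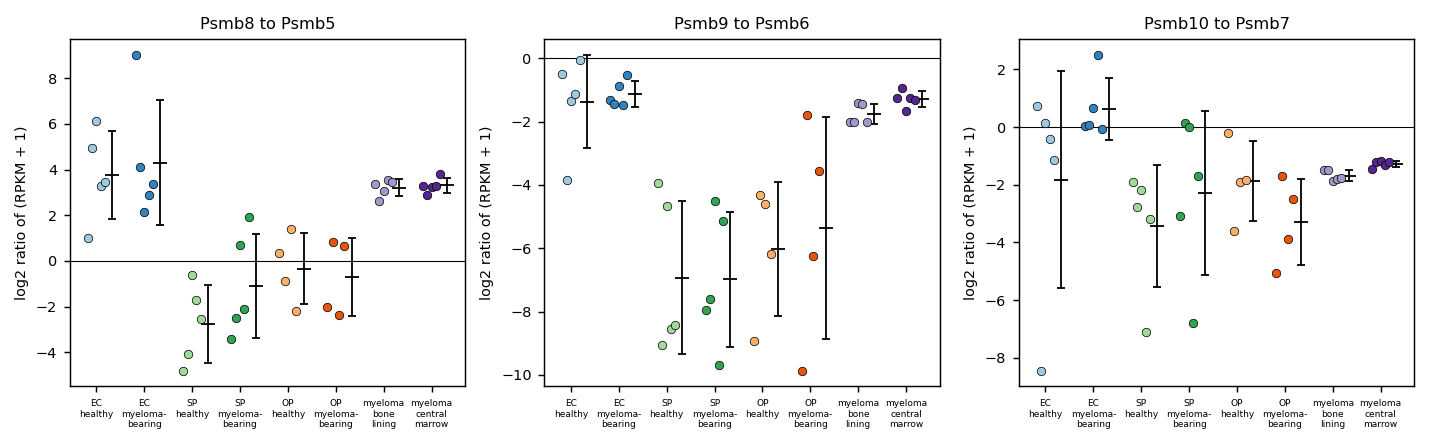
Log2 ratio of (RPKM + 1) of each immunoproteasome subunit to the constitutive subunit of the same site in every library (points) with the mean and SD of each group (bars at the right of the points), for endothelial cells (EC), stromal progenitors (SP), osteoprogenitors (OP) and myeloma cells. Psmb8 to Psmb5 is above 0 in every endothelial and myeloma library, and Psmb9 to Psmb6 is below 0 in all 38 libraries.

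These ratios were tested 12 times (3 ratios in 4 comparisons, exact two-sided permutation tests). With 5 against 5 libraries the smallest p is 0.00794, and a single ratio at that p has a Benjamini-Hochberg adjusted p of 0.0952 over the 12, so that 1 ratio alone could not pass 0.05. Psmb10 to Psmb7 was -1.68 ± 0.19 in bone-lining and -1.27 ± 0.11 in central marrow myeloma cells, with an exact permutation p of 0.00794, and an adjusted p of 0.0952. The libraries of the 2 sites did not overlap in this ratio (-1.88 to -1.47 against -1.44 to -1.18). Psmb9 to Psmb6 was -1.77 ± 0.32 and -1.29 ± 0.26 (exact permutation p = 0.0476, adjusted 0.286), and Psmb8 to Psmb5 differed by -0.10 (exact permutation p = 0.690, adjusted 0.935). Between myeloma-bearing and healthy mice the ratio differences ran from -1.40 (Psmb10 to Psmb7 in osteoprogenitors) to 2.47 (the same ratio in endothelial cells), which ranged with a replicate left out from -1.97 to -0.80 and from 0.82 to 3.11, with adjusted p from the exact permutation tests of 0.552 to 0.952. In osteoprogenitors, with 4 against 4 libraries, the exact permutation test cannot go below 0.0286.

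Psma8 and Psmc3ip stand apart. Psma8 encodes the alpha subunit of the spermatoproteasome and is known for its expression in testis. It had 0 reads in 29 of 38 libraries, where 3 reads, the limit that a count of 0 allows, are worth at most 0.175 RPKM. In 5 others it had 1 or 2 reads, while myeloma-bearing endothelial replicate J had 337 reads (5.77 RPKM), healthy osteoprogenitor replicate N 128 (4.67), and myeloma-bearing osteoprogenitor replicates I and J 214 and 1099 (7.95 and 52.9). It passed the filter on low values in no comparison of 2 groups.

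Psmc3ip was at 21.8 to 81.8 RPKM in bone-lining and at 40.2 to 90.9 in central marrow myeloma cells. It had 0 reads in all 10 healthy endothelial and stromal progenitor libraries, where 3 reads are worth at most 0.181 RPKM. In the other niche libraries it was uneven, with 51.1 RPKM in healthy osteoprogenitor replicate N and, in myeloma-bearing mice, 26.2 in endothelial replicate E, 17.4 in stromal progenitor replicate G and 11.7 in osteoprogenitor replicate G. It was called higher in bone-lining myeloma cells over endothelial cells (4.56 ± 0.92, adjusted p = 0.00199), stromal progenitors (4.30 ± 0.82, 0.00103) and osteoprogenitors (4.59 ± 0.79, 0.000603), and is not counted among the proteasome genes above. Its exons overlap Mlx on the other strand.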

How the data were processed

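RNA-Seq was performed on 38 libraries of 100 sorted cells, amplified by SmartSeq2. Reads were aligned to GRCm38/mm10 with STAR (2.4.0) and counted on genes with featureCounts of Subread (1.4.5-p1), per the submitters' processing notes, and the authors deposited RPKM values computed with edgeR for genes above a minimum CPM. Each value was a whole multiple (within 0.01) of that of 1 read for 13260 of 13260 genes, which gave the reads and the scaling of library sizes (0.627 to 1.60).

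Groups follow the labels. Comparisons used limma 3.58.1 (R 4.3.3, with trend) on log2(RPKM + 1), which understates differences of low genes, with only the libraries compared, a filter of more than 1 RPKM in 4 libraries, an adjusted p below 0.1 and an absolute log2 difference above 1. Interactions were fitted on the niche libraries, and ratios were tested by exact permutation. Where replicates share a mouse, p-values measure only the spread between these samples. Floors of 3 reads cover counting error only. Fits were tested on simulated reads of the myeloma and stromal progenitor groups. These had the same relative spread for every gene and no added zeros. They do not show how well changes in niche cells are found.

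Members and lists were chosen with earlier results of these data known. Genes named with values were the catalytic subunits, Pomp, the Psme genes, the highest and lowest of each class, the 3 farthest from 0 in each direction and up to 8 called genes per comparison, and further called genes were added after their values were seen. Alternatives were a pseudocount of 0.1, no filter, no trend, all 38 libraries in one fit, quantile normalisation, equal medians, voom-limma on the reads, a replicate block and each replicate left out. Genes and overlaps are from GENCODE M21, promoters from RefSeq (GRCm38.p6), without windows for Psma8, Psmd7, Psmg2, Psmb1, Psmb2, Psmc3, Psmd3 and Psmb7. Protein sequences were not used here. Some genes of the pathway list are counted but not reported here by name.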

Additional observations from a re-analysis of the deposited data

Results flagged for a closer look

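Values that stood apart from the rest of their group by Dixon's ratio were sought among class means, single genes and ratios in each group. Chance sets apart about 5 in 100 where values are normal and independent. Here class means and ratios share genes with single values, so no excess over chance was read from the count. Of 136 group values examined, 16 stood apart. In healthy endothelial cells they were Psmb7 in replicate C (log2(RPKM + 1) of 6.49, next 8.13), Psme3 in replicate C (1.396, next 0.17), Psmd14 in replicate L (0.29, next 6.72) and the log2 ratio of Psmb10 to Psmb7 in replicate L (-8.45, next -1.15). In myeloma-bearing endothelial cells, replicate D was lowest for Psmb5 (0.32, next 4.70), Psma5 (3.62, next 5.68) and Psmd14 (0.19, next 6.25), and highest for the ratio of Psmb8 to Psmb5 (9.005, next 4.10), while replicate I was highest for Psmb10 to Psmb7 (2.49, next 0.65).

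In healthy stromal progenitors, replicate L was highest for the 19S ATPase mean (7.25, next 6.85) and lowest for Psme1 (2.06, next 5.93), and replicate N was lowest for Psmb10 to Psmb7 (-7.10, next -3.19). In osteoprogenitors, healthy replicate O was lowest for the activator mean (3.10, next 4.63) and for Psme1 (2.36, next 5.29), and myeloma-bearing replicate I was lowest for the 19S non-ATPase mean (3.75, next 5.33) and for Psme1 (3.44, next 6.05). None of the 16 was in a myeloma library.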

How the results depend on the processing

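Of 62 single-gene calls of proteasome genes, counting a gene once in each comparison, 26 held under every alternative and none changed sign. Called proteasome genes with each replicate left out ranged from 9 to 13, 12 to 19 and 21 to 27 in myeloma cells over endothelial cells, stromal progenitors and osteoprogenitors, where 20.3 to 21.97%, 19.6 to 21.3% and 21.5 to 23.1% of all genes were higher. They ranged from 1 to 3 between healthy endothelial cells and stromal progenitors, from 1 to 3 between healthy endothelial cells and osteoprogenitors and from 0 to 1 between healthy osteoprogenitors and stromal progenitors (13.95 to 16.0%, 7.11 to 17.6% and 1.44 to 4.21% of all genes), and were 0 elsewhere. The count of 18 over stromal progenitors was 12 without replicate G and 12 without replicate J. Voom-limma gave 13 in place of 26 over osteoprogenitors (15.4% of all genes). Fitting all 38 libraries gave 1 between myeloma-bearing and healthy endothelial cells (voom-limma also 1), where they called 3.27% and 3.92% of all genes. It gave 9 between healthy endothelial cells and stromal progenitors (voom-limma 9, equal medians 1) and 7 between healthy endothelial cells and osteoprogenitors (voom-limma 4, no trend 1, equal medians 1), where of all genes the fit of all 38 libraries called 28.1% and 27.0%, voom-limma 30.2% and 26.8%, equal medians 13.6% and 13.1% and, for the latter comparison, no trend 15.8%. The cause was not tested.

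Same-letter libraries correlated at -0.05 to 0.14 in their deviations from the group means, and libraries of different letters at -0.13 to 0.12. The letter was not taken to pair samples, but low correlations do not show that same-letter libraries came from different mice. The ratio tests between myeloma sites were not paired. With a replicate block the counts were 14, 18 and 24 over endothelial cells, stromal progenitors and osteoprogenitors, 0 between myeloma sites, 3 between healthy endothelial cells and stromal progenitors, 1 between healthy osteoprogenitors and stromal progenitors and 1 between healthy endothelial cells and osteoprogenitors. Of all genes, 24.9%, 23.8% and 22.1% were then higher in the first 3 comparisons, and 0.135%, 16.7%, 2.76% and 15.0% were called in the others. Calls ended by the block were Psmd2 over endothelial cells, Psmc1 over stromal progenitors, Psmd1, Psmd7 and Pomp over osteoprogenitors, and Psme2 and Psmb8 between healthy endothelial cells and osteoprogenitors.

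With a replicate left out, the difference in Psmb8 to Psmb5 between myeloma-bearing and healthy mice ranged from -0.64 to 1.13 in endothelial cells and from -1.002 to 0.20 in osteoprogenitors. That in Psmb9 to Psmb6 ranged from -0.37 to 0.58, from -0.67 to 0.69 and from -0.54 to 2.16 in endothelial cells, stromal progenitors and osteoprogenitors. With a pseudocount of 0.1, Psmb9 to Psmb6 in stromal progenitors was 0.54 in place of -0.05. Values near 0 in libraries of 100 cells limit Psmb5, Psmd14 and the low assembly factors and activators in niche cells.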
